A study of Mus musculus with 10 samples.

Results

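The interferon response genes are the genes that sense, carry and answer the interferon alarm that cells raise against viruses. The set held 38 named mouse genes of 21633 gene loci, taken from a list of names, and no measured value enters the rule. Each was read as a locus, its mm10 gene body with 10 kb on either side. Accessibility was measured by ATAC-seq, in which a transposase cuts open DNA and tags the cut ends for sequencing, in 10 libraries of bone marrow stromal cells from C57BL/6J mice. The measure is the number of peak summits in a locus, a summit being the highest point of a peak that the authors called in that library.

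The libraries fall into 4 groups. The first 3 of them descend from one cell gate, stroma without CD45 (blood cells), Ter119 (red cell lineage) and CD31 (endothelium) and positive for the Scf-GFP reporter of the stem cell factor gene Kitl. The rMSC group (n = 3), named revitalized MSCs in the labels, was cultured from such cells and received the genes Irf3, Irf7, Klf7, Xbp1 and Ostf1 by transduction. The control culture (n = 3) was grown from the same gate and received a control vector. Both cultures shared a medium with 20% serum and FGF-basic. Scf-GFP-positive stroma (n = 2) was sorted fresh from marrow and not transduced, and Scf-GFP-negative stroma (n = 2) was the fresh fraction of the same gate without the reporter. No label gives ages, the number of animals or whether replicates had separate origins. All p-values therefore reflect how far libraries of a group spread, and that spread could be technical.

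Type I interferons bind the receptor made of Ifnar1 and Ifnar2. The signal is carried to DNA by a complex that includes STAT2 and IRF9 and binds the interferon-stimulated response element, here 2 copies of the letters GAAA with any 2 bases between them, near the starts of its target genes. Irf3 and Irf7, which rMSC received and which are not members of the set, are the factors that switch on interferon genes after a virus is sensed, and IRF proteins bind similar letters. The targets include the RNA sensors Ifih1 and Dhx58, the antiviral Ifit, Oas and Mx proteins, the brake Usp18 and the antigen processing genes Tap1, Psmb8 and Psmb9.

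Promoter sequences show where those letters sit at the loci the comparisons turn on. Each runs 5′ to 3′ along the gene's own strand from 250 bases before the annotated start to 50 after it (RefSeq, GRCm38.p6), and capitals mark every match to those letters on either strand. Oas1a and Ifi44 are shown because their starts had peaks in every rMSC library and in no control culture list of equal size. Ifit1 and Ifit3 are shown because their peaks ranked higher in every rMSC library than in any control culture. Rsad2 is shown because its start had no peak in the equal-size list of any culture, and Isg15 as a start that was open in all 10 libraries. The windows are chr5:120907476-120907775 on the minus strand for Oas1a, chr3:151749861-151750160 on the minus strand for Ifi44, chr19:34640639-34640938 on the plus strand for Ifit1, chr19:34583279-34583578 on the plus strand for Ifit3, chr12:26456403-26456702 on the minus strand for Rsad2 and chr4:156200769-156201068 on the minus strand for Isg15.
Oas1a: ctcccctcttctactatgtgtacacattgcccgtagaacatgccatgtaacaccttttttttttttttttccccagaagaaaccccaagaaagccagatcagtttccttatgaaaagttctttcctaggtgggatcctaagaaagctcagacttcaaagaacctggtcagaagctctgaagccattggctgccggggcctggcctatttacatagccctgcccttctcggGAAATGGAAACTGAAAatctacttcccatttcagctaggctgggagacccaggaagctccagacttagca
Ifi44: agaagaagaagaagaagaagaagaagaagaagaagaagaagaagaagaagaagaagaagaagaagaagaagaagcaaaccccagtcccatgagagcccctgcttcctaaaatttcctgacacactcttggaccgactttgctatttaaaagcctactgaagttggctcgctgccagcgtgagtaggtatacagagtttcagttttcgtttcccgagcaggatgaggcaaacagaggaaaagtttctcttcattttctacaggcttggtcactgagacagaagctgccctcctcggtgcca
Ifit1: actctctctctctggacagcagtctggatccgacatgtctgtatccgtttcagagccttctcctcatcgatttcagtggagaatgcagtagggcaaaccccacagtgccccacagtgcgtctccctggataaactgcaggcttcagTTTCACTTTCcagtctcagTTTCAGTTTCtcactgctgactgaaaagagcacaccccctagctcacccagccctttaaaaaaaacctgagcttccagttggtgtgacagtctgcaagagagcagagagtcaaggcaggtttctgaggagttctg
Ifit3: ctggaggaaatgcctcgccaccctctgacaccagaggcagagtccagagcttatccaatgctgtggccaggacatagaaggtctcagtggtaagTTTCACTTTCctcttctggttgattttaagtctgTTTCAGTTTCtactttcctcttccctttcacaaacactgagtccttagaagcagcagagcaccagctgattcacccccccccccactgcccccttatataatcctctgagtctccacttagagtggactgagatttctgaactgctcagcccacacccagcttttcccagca
Rsad2: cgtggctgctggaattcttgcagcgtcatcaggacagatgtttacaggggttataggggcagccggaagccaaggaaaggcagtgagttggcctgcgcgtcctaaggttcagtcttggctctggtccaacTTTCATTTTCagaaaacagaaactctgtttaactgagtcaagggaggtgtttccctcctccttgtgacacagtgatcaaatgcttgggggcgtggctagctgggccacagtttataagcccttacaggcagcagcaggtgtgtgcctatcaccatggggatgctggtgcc
Isg15: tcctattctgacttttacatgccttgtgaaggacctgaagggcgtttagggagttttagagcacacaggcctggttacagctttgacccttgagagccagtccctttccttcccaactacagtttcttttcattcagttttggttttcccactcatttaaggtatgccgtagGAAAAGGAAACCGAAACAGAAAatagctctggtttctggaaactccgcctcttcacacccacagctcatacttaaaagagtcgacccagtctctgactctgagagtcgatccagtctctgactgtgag

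Oas1a has 2 overlapping matches, whose first bases lie at −20 and −14 from the start. Ifit1 has 2 matches, at −104 and −85, Ifit3 has 2, at −156 and −122, and Isg15 has 3 overlapping ones between −78 and −66. Rsad2 has 1 match at −120, and the Ifi44 window has none of these exact letters. RefSeq windows were matched for 30 of the 38 members, with 35 windows in all. The letters were present in 12 of the 35 windows (34.3%), against 1129 of all 32619 windows (3.46%). A match is a description of the letters and not evidence of a bound site.

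Peak lists differed in length, with 39936 to 78489 deposited peaks, so the 39912 strongest peaks of each library were compared. These lists reached down to a −log10 q of 2.653 and 2.097 in the 2 Scf-GFP-negative libraries and to between 4.268 and 5.802 in the other 8. Sequencing depth is unknown. Replicate 1 of each group came from one flow cell and the rest from another, so the first held 1 library of each group and allowed no test of its own. With the flow cell as a term in the fit, 8 of the 11 calls below held and 3 were lost, Ifih1 in rMSC against control culture (limma adjusted p = 0.0647) and Usp18 and Irf1 in rMSC against Scf-GFP-positive stroma (limma adjusted p = 0.0644 and 0.0608). Summed over 12 loci of stroma markers, rMSC had 51 to 54 summits, control cultures 61 to 71, Scf-GFP-positive stroma 84 and 75, and Scf-GFP-negative stroma 14 and 15. Over 14 loci of blood cell markers the sums were 16 to 20 in rMSC, 13 to 18 in control cultures, 15 and 21 in the Scf-GFP-positive libraries, and 44 and 53 in Scf-GFP-negative stroma. Few stroma marker summits were thus present in Scf-GFP-negative stroma, where the blood regulator Ikzf1 had 12 and 19 summits and the CD45 gene Ptprc 5 and 5. Lepr, a marker of these marrow stromal cells, had 0 summits in all 6 cultures and 2 and 2 in Scf-GFP-positive stroma. In bulk libraries, a locus open in fewer cells and a locus less open in each cell cannot be told apart.

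The interferon response loci were sparsely but widely open. The member loci together held 86, 85 and 79 summits in rMSC, 71, 71 and 73 in control cultures, 80 and 88 in the Scf-GFP-positive libraries, and 96 and 122 in Scf-GFP-negative stroma. In rMSC, 36 of the 38 loci had at least 1 summit in each library, against 31, 31 and 34 in control cultures. With all deposited peaks the sums were 135, 131 and 137 in rMSC and 88, 122 and 130 in control cultures, from lists of unequal length. As shares of each list they were 0.204, 0.185 and 0.175% in rMSC and 0.182, 0.162 and 0.179% in control cultures. On that measure the cultures overlapped. The highest mean over all libraries, 5.4 summits, was at Ifi35, an interferon-induced leucine zipper protein, with 4, 5 and 3 in rMSC, 5, 7 and 4 in control cultures, 5 and 5 in the Scf-GFP-positive libraries, and 9 and 7 in Scf-GFP-negative stroma. The flanks of that locus take in peaks at the starts of Rpl27 and Vat1, so its count is not of Ifi35 alone. The lowest mean, 0.5, was at Irf8 and Oas2, and Oas2 had 1, 1 and 1 in rMSC, 0, 0 and 1 in control cultures, 0 and 0 in the Scf-GFP-positive libraries, and 1 and 0 in Scf-GFP-negative stroma. Irf8 had 0, 0 and 0 in rMSC, 0, 0 and 1 in control cultures, 1 and 3 in the Scf-GFP-positive libraries, and 0 and 0 in Scf-GFP-negative stroma.

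**Figure D1:**
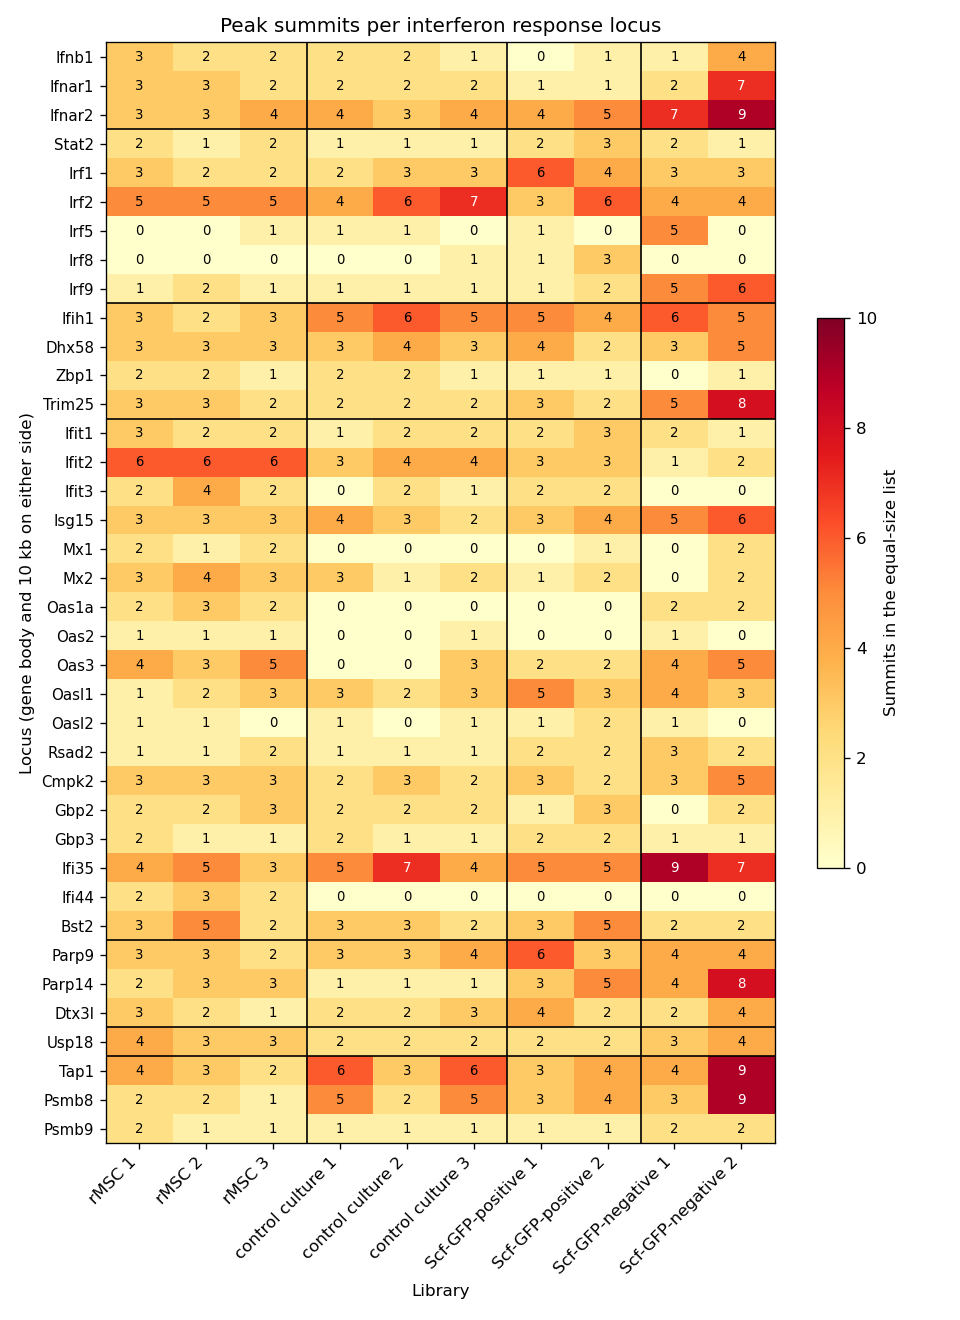
Number of peak summits in each of the 38 interferon response loci (rows, grouped by role) in each of the 10 libraries (columns), in lists of equal size. In the rows of Ifi44, Oas1a, Ifit2, Parp14, Usp18 and Mx1, every rMSC library is above every control culture.

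Starts of the member genes were covered by a peak more often than those of all genes in each of the 10 libraries. A peak covered the start of 80.0, 73.3 and 76.7% of the 30 members with a window in rMSC, 63.3, 70.0 and 76.7% in control cultures, 83.3 and 80.0% in the Scf-GFP-positive libraries, and 73.3 and 73.3% in Scf-GFP-negative stroma. Over 17274 genes the share lay between 47.5 and 55.4% in every library. The start was covered in all 10 libraries for 17 members (56.7%), against 39.6% of all genes. These 17 include Stat2, Irf1, Irf2, Irf9, Ifnar1, Ifnar2, Ifih1 and Isg15, that is the receptor, the factors that carry its signal and some of its targets. The start of Ifnb1, which encodes interferon beta, was covered in none of the 10.

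**Figure D2:**
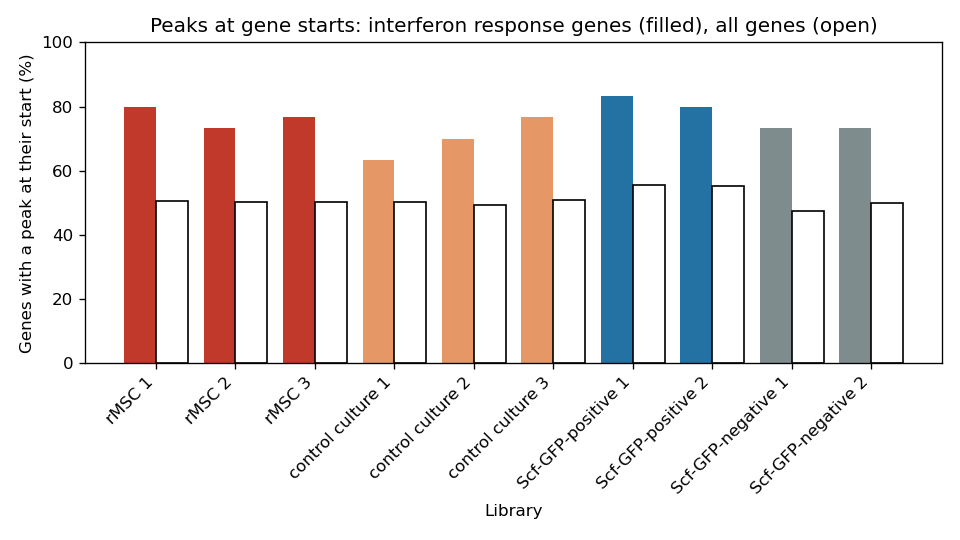
Share of genes (%) with a peak at their start in each library, for the 30 interferon response genes with a RefSeq window (filled bars) and for all 17274 genes (open bars). Filled bars range from 63.3 to 83.3% and are the taller of the pair in every library.

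The comparison of rMSC with the control culture asks what the 5 transduced genes changed on the same cultured background. Ifih1 had fewer summits in rMSC, while Ifi44 and Oas1a had a peak at their starts in every rMSC library and in no control culture list of equal size. The start peaks of Ifit1 and Ifit3, both antiviral RNA-binding proteins, ranked higher in rMSC, and most other members did not separate the cultures. A test needs enough peaks, so a locus was kept where it averaged 2 summits or more over all libraries, which 9153 of all loci and 23 of the 38 members did. Limma on log2(summits + 0.5), in 1 fit over the 4 groups, called 0 members higher, against 1.29% of all tested loci, and 1 member lower, against 0.961%. At an unadjusted p under 0.05, 4 members (17.4%) were higher, against 9.78% of all tested loci, and 1 (4.35%) was lower, against 7.49%. The median log2 change of the tested members was 0.04, against 0 over all tested loci. The 15 members below the filter were Stat2, Irf5, Irf8, Ifit3, Mx1, Oas1a, Oas2, Oasl2, Rsad2, Gbp2, Gbp3, Ifi44, Zbp1, Psmb9 and Ifnb1, so the test does not speak to several of the loci described below.

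The locus called lower was Ifih1 (chromosome 2, 62595618 to 62646255), which encodes MDA5, a sensor of long double-stranded viral RNA. It had 3, 2 and 3 summits in rMSC and 5, 6 and 5 in control cultures, with 5 and 4 in the Scf-GFP-positive libraries, and 6 and 5 in Scf-GFP-negative stroma. Every rMSC library was below every other library. The log2 change was −0.89 ± 0.17 (SE, limma adjusted p = 0.0483, n = 3 and 3). The call was lost in 16 of 24 alternatives, among them leaving out any 1 of the 6 cultures or either Scf-GFP-positive library, with adjusted p between 0.0357 and 0.841. With all deposited peaks the locus had 6, 7 and 6 summits in rMSC and 6, 8 and 7 in control cultures, so the cultures then overlapped.

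The 4 members that were higher at an unadjusted p under 0.05 missed the adjusted threshold. Usp18 (chromosome 6, 121245906 to 121270917), a protease that removes ISG15 from proteins and damps the interferon receptor, had 4, 3 and 3 summits in rMSC and 2, 2 and 2 in control cultures (log2 0.61 ± 0.14, limma adjusted p = 0.0703). Parp14, an ADP-ribosyltransferase, had 2, 3 and 3 in rMSC and 1, 1 and 1 in control cultures (log2 1.06 ± 0.28, limma adjusted p = 0.0994). Ifit2, an antiviral protein that binds RNA, had 6, 6 and 6 in rMSC and 3, 4 and 4 in control cultures (log2 0.65 ± 0.19, limma adjusted p = 0.133). At these 3 loci the cultures did not overlap in the equal-size lists. Oas3, which makes the 2′-5′ oligoadenylates that activate RNase L, had 4, 3 and 5 in rMSC and 0, 0 and 3 in control cultures, where the groups met at 3 (log2 2.21 ± 0.70, limma adjusted p = 0.152). Without Scf-GFP-negative replicate 1, and likewise without replicate 2, Usp18, Parp14 and Ifit2 passed beside Ifih1. With all deposited peaks the cultures met or overlapped at Usp18, Parp14 and Ifit2. Usp18 then had 5, 6 and 6 summits in rMSC and 2, 5 and 3 in control cultures. Parp14 had 3, 3 and 3 in rMSC and 1, 4 and 4 in control cultures, and Ifit2 had 7, 9 and 7 against 4, 7 and 6.

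**Figure D3:**
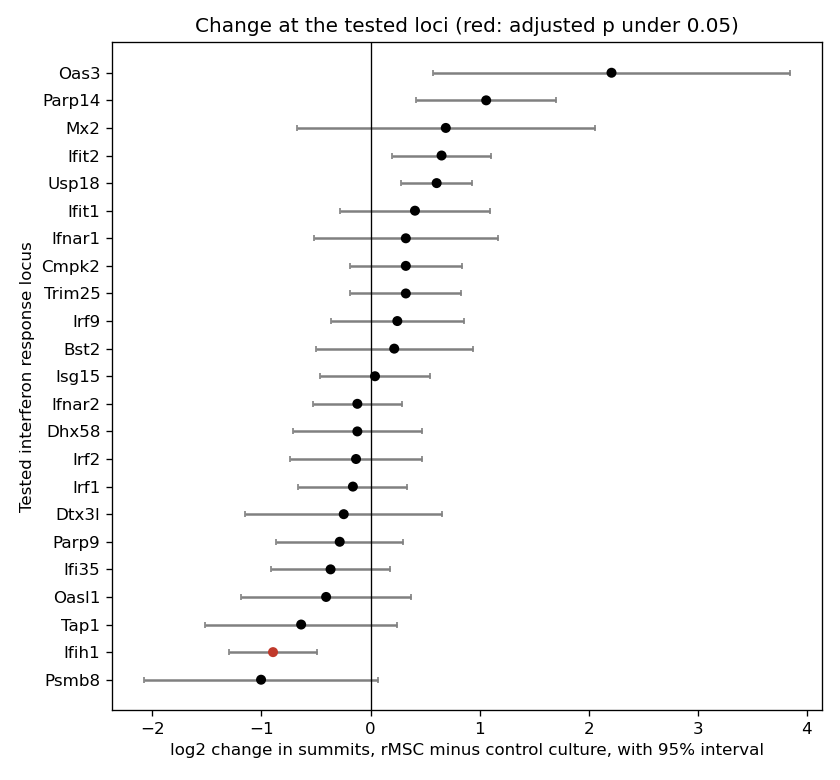
Change in summits at the 23 tested interferon response loci, rMSC minus control culture, on the log2(summits + 0.5) scale with the 95% interval from limma. The red point, Ifih1, is the 1 locus past the adjusted threshold, and the intervals of Oas3, Parp14, Ifit2 and Usp18 lie above 0 without passing it.

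Ifi44 and Oas1a were below the filter and had no summit in any control culture. Ifi44 (chromosome 3, 151730922 to 151749910), an interferon-induced gene, had 2, 3 and 2 summits in rMSC and 0 in all 7 other libraries. Oas1a (chromosome 5, 120896256 to 120907544), another oligoadenylate synthetase, had 2, 3 and 2 in rMSC, 0 in all control cultures and all Scf-GFP-positive libraries, and 2 and 2 in Scf-GFP-negative stroma. No test is given for either: under a looser filter Ifi44 would enter through its rMSC summits alone, and at both loci whole groups at 0 have no spread of their own. With all deposited peaks, Ifi44 had 3, 3 and 4 summits in rMSC and 0, 0 and 0 in control cultures, and Oas1a had 4, 4 and 3 in rMSC and 0, 0 and 1 in control cultures. Mx1 is a dynamin-like antiviral protein whose gene RefSeq lists as a transcribed pseudogene in this strain. In the equal-size lists it had 2, 1 and 2 summits in rMSC and 0, 0 and 0 in control cultures. The Scf-GFP-positive libraries had 0 and 1 there, and Scf-GFP-negative stroma 0 and 2. With all deposited peaks Mx1 had 3, 2 and 5 in rMSC and 0, 0 and 3 in control cultures, so the cultures then overlapped.

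Merged regions show where in the loci the peaks lay. Peaks of the equal-size lists that overlapped by at least 1 bp were merged, and 215 regions had a summit in a member locus. Of these, 29 (13.5%) were present in all 10 libraries and 90 (41.9%) in 1 library. Present in every rMSC library and in no control culture were 10 (4.65%), against 3.06% of all 119993 regions. Present in every control culture and in no rMSC library were 2 (0.93%), against 3.42%. With groups of 3 libraries these counts have no test, and separate calling in each library can place a weak peak just below a list's end.

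The 10 regions lay at Oas, Ifit, Ifi44, Mx1, Parp14, Rsad2 and Ifnar2 loci. Ifi44 had 2, one across its start (chr3:151749507-151750213) with the authors' fold enrichment at 6.47, 6.95 and 6.69 in rMSC, and one 5726 bp outside the gene body (chr3:151755636-151756001) at 5.66, 9.27 and 5.94. The Oas cluster held 3, across the start of Oas1a (chr5:120907269-120907770; 7.28, 6.95 and 9.66), across the start of the neighbouring Oas1g (chr5:120887182-120887795; 6.47, 9.27 and 5.94) and inside Oas3 (chr5:120774876-120776065; 8.09, 7.72 and 12.63). A region 572 bp from Ifit2, between it and Ifit3, had folds of 7.28, 6.18 and 7.43 (chr19:34577106-34577602). The remaining 4 were a region 2706 bp from Mx1, one at the end of Parp14, one 3469 bp from Rsad2 on the side of Cmpk2, and one 5376 bp from Ifnar2 inside Il10rb. These folds are the authors' and describe each peak within its own list.

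Of the 10, 4 had no peak in any of the 7 other libraries even when all deposited peaks were read. They were both Ifi44 regions, the start of Oas1g and the region between Ifit2 and Ifit3, 1.86% of the member regions, against 1.09% of all regions. At the start of Oas1a, control culture replicate 3 had a weaker deposited peak with a fold of 3.86. The Oas3 region was not confined to rMSC, with folds of 9.33 and 15.09 in Scf-GFP-negative stroma. The 2 regions of the opposite kind were both at Ifih1. One lay 424 bp outside the gene body (chr2:62594348-62595194), where rMSC had weaker deposited peaks at folds of 5.66, 5.41 and 4.46 and control cultures 7.39, 11.57 and 12.34. The other lay inside the gene (chr2:62597230-62597693) and had no deposited peak in rMSC.

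**Figure D4:**
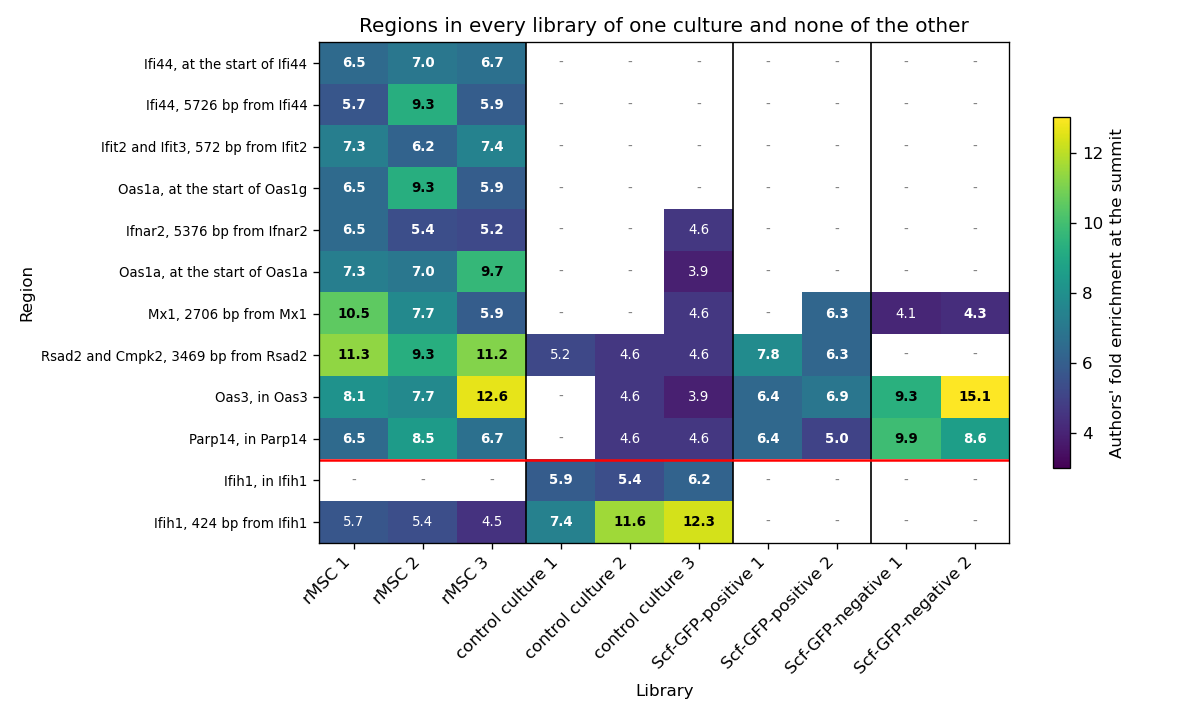
The 12 regions at interferon response loci that were present in every list of one culture and none of the other (rows; above the red line in rMSC, below it in the control culture), by library (columns). Numbers and colours give the authors' fold enrichment of the strongest deposited peak, bold where it is in the equal-size list, and a dash marks no peak; the first 4 rows are filled in rMSC alone.

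Multigene families call for care at these regions. Oas1a and Oas1g, and Ifit1 and its neighbours Ifit1bl1 and Ifit1bl2, are close copies, and how reads matching several copies were placed is stated by no label. Of the 38 loci, 13 also overlap another member's locus and share its summits (Ifit2 with Ifit3, Oas2 with Oas3, Oasl1 with Oasl2, Rsad2 with Cmpk2, Parp9 with Dtx3l, and Tap1, Psmb8 and Psmb9 among themselves), so their counts are not separate evidence.

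Peak strength at the starts gave a second reading of the same lists, which does not depend on a count of summits. It was taken as the share of the library's own equal-size list that is weaker than the strongest peak at the start. A start without a peak was placed below every start with one. Of the 25 members with a start peak in either culture, 6 (24.0%) ranked higher in every rMSC library than in any control culture, against 13.8% of all genes, and 4 (16.0%) ranked lower, against 15.6%. The 6 were Stat2, Ifit1, Ifit3, Oas1a, Ifi44 and Ifnar2. Oas1a and Ifi44 ranked higher only because no control culture had a start peak there, which repeats the presence result above. Their shares in rMSC were 23.0, 24.7 and 55.4% at Oas1a and 9.29, 24.7 and 24.1% at Ifi44. At Ifit1, which binds foreign RNA ends and whose promoter above holds 2 matches, the shares were 89.2, 81.5 and 77.4% in rMSC and 6.97, 41.7 and 9.63% in control cultures. The same start stood at 60.7 and 51.3% in Scf-GFP-positive stroma and had no peak in Scf-GFP-negative stroma.

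Ifit3 had 83.6, 83.2 and 60.0% in rMSC, and in control cultures no peak, 41.7 and 44.5%. Stat2 was near the top of every list, with 98.9, 99.5 and 99.5% in rMSC and 98.0, 97.8 and 98.1% in control cultures. The summits of the rMSC peaks at Oas1a lay at −92, −1 and −74 from the start, and those at Ifit1 at −78, −132 and −118. The first bases of the matches, at −20 and −14 in Oas1a and at −104 and −85 in Ifit1, lie within these spans. The second Ifit1 match runs past the end of its span. At Ifit3 the rMSC summits lay at 6, −70 and −105, and both matches, at −156 and −122, lie outside that span. Isg15, with 3 matches, did not separate the cultures, with 69.6, 50.3 and 24.1% in rMSC and 68.7, 60.2 and 79.3% in control cultures.

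The 4 starts that ranked lower in rMSC were Irf2, Ifih1, Tap1 and Psmb9, and Tap1 and Psmb9 share 1 peak. Ifih1 had 41.7, 35.3 and 9.41% in rMSC and 61.3, 60.2 and 68.9% in control cultures, with 89.6 and 90.9% in Scf-GFP-positive stroma. Irf2, a repressor that competes for IRF sites, had 74.6, 73.6 and 67.6% in rMSC and 88.0, 84.2 and 81.2% in control cultures. Over all promoters, a peak in every rMSC list and no control culture list was found at 3 of the 1129 windows that hold the letters (0.266%), and at 0.772% of the windows that lack them. With all deposited peaks these were 7 windows (0.62%) and 0.715%, so the gap depended on where the lists were cut.

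**Figure D5:**
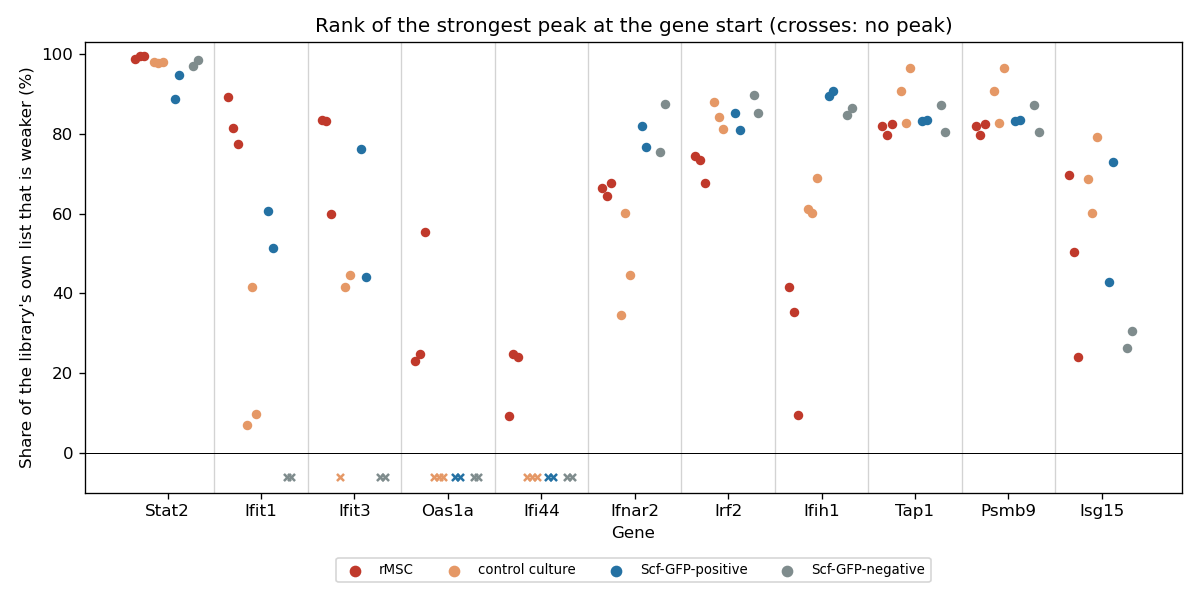
Strength of the strongest peak at the start of 11 interferon response genes, as the share (%) of the library's own list that is weaker, 1 point per library and a cross where there is no peak. From Stat2 to Ifnar2 every rMSC point is above every control culture point, from Irf2 to Psmb9 every one is below, and Isg15 overlaps.

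The regions present in all 10 libraries could be ranked without missing values. In rMSC, 4 of the 29 (13.8%) ranked above every control culture, against 13.9% of 9296 such regions, and 5 (17.2%) ranked below, against 16.0%. The members' shares were thus close to those of all regions. One of the 4 was at Usp18 (chr6:121245104-121246311, over the lower-coordinate end of the gene), at 97.0, 98.1 and 97.7% in rMSC, 82.6, 90.1 and 77.1% in control cultures, 91.0 and 90.4% in the Scf-GFP-positive libraries, and 87.4 and 88.5% in Scf-GFP-negative stroma. A region 8570 bp from Parp9 (chr16:35981191-35981941) lay outside every member's body and over a promoter window of another gene, Gm15564. It had 69.6, 88.3 and 79.2% in rMSC and at least 99.7% in the other 7 libraries.

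Neither Irf3 nor Irf7, both transduced into rMSC, passed the threshold against control cultures, and peaks from a transduced copy and from the gene itself cannot be told apart in these lists. Irf3 had 3, 5 and 6 summits in rMSC and 1, 2 and 1 in control cultures (log2 1.49 ± 0.32, limma adjusted p = 0.0590), and Irf7 had 2, 2 and 3 in rMSC and 3, 2 and 1 in control cultures (log2 0.25 ± 0.31, limma adjusted p = 0.760). Against Scf-GFP-positive stroma, with 2 and 1 summits, Irf3 was called higher in rMSC (log2 1.37 ± 0.35, limma adjusted p = 0.0438). A wider list of 86 interferon pathway genes outside the set had 42 tested loci, of which 1 was higher and 0 lower in rMSC, with 4 (9.52%) and 4 (9.52%) at an unadjusted p under 0.05, against 9.78% and 7.49% of all tested loci. The locus that rose was Tor3a, an interferon-inducible ATPase, with 8, 5 and 7 summits in rMSC and 2, 2 and 3 in control cultures (log2 1.33 ± 0.22, limma adjusted p = 0.0308).

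The comparison of rMSC with fresh Scf-GFP-positive stroma sets the transduced cells against the cells the culture came from. It called 2 of the 23 tested members higher, 8.7% against 7.31% of all tested loci, and 1 lower, 4.35% against 6.63%, shares near those of all loci. Ifit2 (chromosome 19, 34550550 to 34576534) held 6, 6 and 6 summits in rMSC and 3 and 3 in Scf-GFP-positive stroma (log2 0.89 ± 0.22, limma adjusted p = 0.0365). Usp18 had 4, 3 and 3 in rMSC and 2 and 2 in Scf-GFP-positive stroma (log2 0.61 ± 0.16, limma adjusted p = 0.0438). Irf1 (chromosome 11, 53770014 to 53778374), a factor that drives genes of the interferon gamma response, had 3, 2 and 2 in rMSC and 6 and 4 in Scf-GFP-positive stroma (log2 −0.95 ± 0.24, limma adjusted p = 0.0412). The groups did not overlap at any of the 3. The stroma marker loci differed too, with 51 to 54 summits in rMSC and 84 and 75 in Scf-GFP-positive stroma, and their part in these results was not tested. The median change of the tested members was −0.18, against 0 over all loci, and all 3 calls were lost without either Scf-GFP-positive library, without rMSC replicate 2 or 3 and without control culture replicate 2 or 3. Usp18 and Ifit2 were also lost without rMSC replicate 1, Usp18 without control culture replicate 1, and Irf1 without either Scf-GFP-negative library.

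Part of the Ifit2 difference lay inside its gene body. A region there (chr19:34551650-34552544) was present in all 6 cultures, with folds of 14.56, 10.04 and 10.4 in rMSC and 7.39, 8.48 and 6.17 in control cultures, and had no deposited peak in any fresh library. Present in every rMSC library and no Scf-GFP-positive library were 14 member regions (6.51%), against 7.9% of all regions, and 11 (5.12%) were of the opposite kind, against 7.07%. At the starts, 4 of 28 members (14.3%) ranked higher in rMSC, against 12.4% of genes, and 12 (42.9%) ranked lower, against 41.0%. Among the regions present in all libraries, 4 of 29 (13.8%) ranked higher, against 14.2%, and 11 (37.9%) ranked lower, against 38.7%. All 6 of these shares were near those of all regions or genes. In the wider list, 2 of 42 were higher, Tor3a and Ifi27, and 6 were lower. The 4 largest of the 6 were Ifngr2 and Ifngr1, the interferon gamma receptor, the signal inhibitor Socs3 and the antiviral Rnf213. Socs3 had 2, 2 and 2 summits in rMSC and 7 and 6 in Scf-GFP-positive stroma (log2 −1.48 ± 0.18, limma adjusted p = 0.00388).

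The control culture against Scf-GFP-positive stroma shows culture with the control vector, and shares the Scf-GFP-positive libraries with the comparison above. Limma called 0 members higher, against 5.63% of tested loci, and 1 lower, against 5.95%. At an unadjusted p under 0.05, 0 were higher, against 12.4% of tested loci, and 2 (8.7%) were lower, against 14.6%. Parp14 (chromosome 16, 35831892 to 35871518) held 1, 1 and 1 summits in control cultures and 3 and 5 in Scf-GFP-positive stroma (log2 −1.55 ± 0.31, limma adjusted p = 0.0223). In rMSC it had 2, 3 and 3. The call was lost without any 1 control culture and without Scf-GFP-positive replicate 2, with all deposited peaks and with peaks of a −log10 q of at least 5. The median change of the members was −0.22, against 0 over all loci. In the wider list, 0 were higher and 3 lower, Ifngr1, Ifitm2 and Rnf213. Ifngr1 had 1 summit in each control culture and in each rMSC library, against 5 and 3 in Scf-GFP-positive stroma.

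Present in every control culture and no Scf-GFP-positive library were 9 member regions (4.19%), against 7.17% of all regions, and 11 (5.12%) were of the opposite kind, against 6.18%. At the starts, 1 of 26 members (3.85%), Stat2, ranked higher in control cultures, against 11.4% of genes, and 11 (42.3%) ranked lower, against 35.6%. Of the regions present in all libraries, 4 of 29 (13.8%) ranked higher, against 12.8%, and 8 (27.6%) ranked lower, against 32.6%. Rsad2, which encodes the antiviral enzyme viperin, was among the 11. It had no peak in the equal-size lists of rMSC or control cultures, and stood at 70.1 and 76.7% in the Scf-GFP-positive libraries, and 83.2 and 81.7% in Scf-GFP-negative stroma. The deposited lists held a weaker peak there in 1 rMSC library and 1 control culture.

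Between the fresh fractions, summits in the equal-size lists were fewer in Scf-GFP-positive stroma at both chains of the interferon receptor, Irf9, Trim25 and Usp18. At Ifit2 they were more numerous. Limma called 1 of the 23 higher (4.35%), against 13.4% of all tested loci, and 5 lower (21.7%), against 16.6%. The median change was −0.50 for the members, against −0.23 over all loci. The blood marker loci moved in the same direction as the 5, with sums of 15 and 21 in the Scf-GFP-positive libraries, against 44 and 53 in Scf-GFP-negative stroma, and their part in these results was not tested. Endothelial marker loci summed to 6 and 6 in Scf-GFP-positive stroma, against 9 and 19 in Scf-GFP-negative stroma.

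Irf9 (chromosome 14, 55603985 to 55610030), the DNA-binding partner of STAT2, held 1 and 2 summits in Scf-GFP-positive stroma, against 5 and 6 in Scf-GFP-negative stroma (log2 −1.63 ± 0.32, limma adjusted p = 0.00904). Its call held in 17 of the 19 alternatives in which it was tested, and was lost with all deposited peaks and in a fit of these 2 groups alone. Trim25 (chromosome 11, 88999403 to 89020294), a ubiquitin ligase of RNA sensing, had 3 and 2 in Scf-GFP-positive stroma, against 5 and 8 in Scf-GFP-negative stroma (log2 −1.21 ± 0.27, limma adjusted p = 0.0138). The groups did not overlap at either locus.

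Both receptor chains were lower in Scf-GFP-positive stroma in the equal-size lists. Ifnar1 (chromosome 16, 91485032 to 91510523) held 1 and 1 summits in Scf-GFP-positive stroma, against 2 and 7 in Scf-GFP-negative stroma (log2 −1.53 ± 0.44, limma adjusted p = 0.0371). Ifnar2 (chromosome 16, 91372783 to 91405589) had 4 and 5 in Scf-GFP-positive stroma, against 7 and 9 in Scf-GFP-negative stroma (log2 −0.76 ± 0.22, limma adjusted p = 0.0336). Usp18 had 2 and 2 in Scf-GFP-positive stroma, against 3 and 4 in Scf-GFP-negative stroma (log2 −0.67 ± 0.17, limma adjusted p = 0.0243). The groups did not overlap at these 3 loci, although the 2 Scf-GFP-negative libraries lay far apart at Ifnar1. Ifit2 was higher, with 3 and 3 in Scf-GFP-positive stroma, against 1 and 2 in Scf-GFP-negative stroma (log2 0.85 ± 0.24, limma adjusted p = 0.0325). The calls of Ifnar2, Trim25, Usp18 and Ifit2 depended on where the lists were cut. All 4 were lost with all deposited peaks, and again with peaks of a −log10 q of at least 5. Reading all deposited peaks brought the Ifnar2 counts closer together, to 7 and 7 (Scf-GFP-positive) against 8 and 9 (Scf-GFP-negative). At Ifnar1 those counts were 1 and 1 against 4 and 7. Leaving out either Scf-GFP-positive library ended the calls of Ifit2, Ifnar1, Ifnar2 and Usp18. Leaving out Scf-GFP-positive replicate 2 or Scf-GFP-negative replicate 2 ended that of Trim25, Scf-GFP-negative replicate 2 also those of Ifnar2 and Usp18, and Scf-GFP-negative replicate 1 that of Ifit2. The calls of Ifit2 and Ifnar1 were lost too without any 1 rMSC library, and that of Ifnar1 without any 1 control culture, since all groups share 1 estimate of the spread.

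Present in every Scf-GFP-positive library and no Scf-GFP-negative library were 15 member regions (6.98%), against 9.63% of all regions, and 13 (6.05%) were of the opposite kind, against 4.46%. The starts of Ifit1 (chr19:34640361-34641209) and Ifit3 (chr19:34582812-34583801) were among the 15, with folds of 9.23 and 7.54 at Ifit1 and 13.5 and 6.91 at Ifit3 in Scf-GFP-positive stroma and no deposited peak in Scf-GFP-negative stroma. The start of Irf8, a factor of blood cell lineages, was also among them, with folds of 14.21 and 9.43 in Scf-GFP-positive stroma and none in Scf-GFP-negative stroma. Among the starts, 10 of 27 members (37.0%) ranked higher in Scf-GFP-positive stroma, against 35.3% of genes, and 6 (22.2%) ranked lower, against 17.8%. Of the regions present in all libraries, 12 of 29 (41.4%) ranked higher, against 32.2%, and 6 (20.7%) ranked lower, against 19.7%. In the wider list, 3 of 42 were higher, Socs3, Ifit1bl1 and Tlr4, the receptor for bacterial endotoxin, and 3 were lower, Tyk2, Znfx1 and H2-D1. Tlr4 had 4 and 3 summits in the Scf-GFP-positive libraries, and 0 and 0 in Scf-GFP-negative stroma (limma adjusted p = 0.000594). Tyk2, a kinase of the receptor, had 2 and 2 in Scf-GFP-positive stroma, against 6 and 7 in Scf-GFP-negative stroma (log2 −1.48 ± 0.21, limma adjusted p = 0.00251).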

How the data were processed

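The 10 ATAC-seq libraries, 1 peak list each, were grouped by their titles. Each came from 2700 to 5000 sorted cells, with 13 or 17 PCR cycles and paired reads of 100 bp, per the labels' protocols. Per the submitters' processing notes, the tools were BWA and MACS2 and the build mm10, and no version or setting is stated. The authors called peaks on each library alone. Each deposited peak carries a fold enrichment, a ratio over the caller's background. It also carries −log10 values of p and q, as deposited p-values and q-values on that scale. The deposited score is the −log10 q multiplied by 10, without decimals. No read counts were used, so depth is unknown and no counting interval can be given.

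Peaks on chromosomes 1 to 19 and X were kept. The 39912 highest by −log10 p were taken from each library, with ties at the end of a list in a seeded random order. Up to 9121 peaks were tied there. Summits per locus were fitted with limma 3.58.1 in R 4.3.3 (trend, log2 of summits plus 0.5, mean of at least 2 summits, no covariate), with Benjamini-Hochberg adjustment over 9153 loci and a threshold of 0.05. The fit was tested on simulated data. Gene bodies, names and promoter windows came from RefSeq GRCm38.p6, which has the mm10 coordinates, and all 38 members matched. Replicate 1 of every group was run on one flow cell and the rest on another, by names in the deposited data. The groups share replicate numbers, and same-numbered libraries did not deviate together (r from −0.029 to 0.012), so they were not paired. Alternatives changed the list, filter, pseudocount, flank, overlap rule, model terms and libraries. Among them, ranking peaks by fold enrichment gave the same region counts as the main lists in every comparison, so it is not a separate check. The counts of alternatives above include that setting. The genes given in full are those past the threshold in any comparison, those with a region present in all libraries of one culture and none of the other, and those of highest and lowest mean. The member genes, the wider list and the markers were chosen with earlier results of these data known.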

Additional observations from a re-analysis of the deposited data

How the results depend on the processing

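The main counts of member loci called were 1 for rMSC against control culture, 3 for rMSC against Scf-GFP-positive, 1 for control culture against Scf-GFP-positive and 6 between the 2 fresh fractions, Scf-GFP-positive against Scf-GFP-negative, and the counts of member regions present in all libraries of one group and none of the other were 12, 25, 20 and 28. Leaving out 1 library gave 0 to 4, 0 to 3, 0 to 2 and 1 to 6 loci and 13 to 16, 29 to 40, 21 to 38 and 43 to 66 regions, in that order of comparisons. Such region counts can only stay equal or rise when a library is left out. The 66 arose without Scf-GFP-negative replicate 1. Then 15 (6.98%) were of Scf-GFP-positive stroma, against 10.1% of all regions, and 51 (23.7%) of Scf-GFP-negative stroma, against 15.4%. For loci, the shares of all tested loci are not given for the alternatives. No change in direction was found among the 11 calls under any alternative in which they were tested.

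For rMSC against control culture, 0 loci were called with a pseudocount of 0.25, all deposited peaks, peaks with −log10 q of at least 5, the gene body alone, the 2 groups alone, the flow cell as a term or chromosome totals equalised. A filter at a mean of 1 summit gave 2 and no filter 3, by adding Oas1a and then Ifi44. Ifi44 entered only through the group where it is high. Oas1a entered through summits in rMSC and Scf-GFP-negative stroma, with a mean of 1.1, and its other groups were at 0 without spread. The larger counts therefore lend neither locus support. For rMSC against Scf-GFP-positive stroma, 6 were called with no filter, Ifi44 and Oas1a again among them, and 6 with all deposited peaks. The gene body alone, the 2 groups alone or the flow cell as a term gave 1. All deposited peaks gave 40 of 308 member regions. Of the 308, 31 (10.1%) were in every rMSC and no Scf-GFP-positive library, against 8.65% of all regions. The opposite kind numbered 9 (2.92%), against 4.57%. For control culture against Scf-GFP-positive stroma, the gene body alone gave 2 and another order of tied peaks, an alternative chosen after seeing the data, gave 3 (Bst2, Irf9 and Parp14). Between the fresh fractions, all deposited peaks, peaks with −log10 q of at least 5 and a flank of 5 kb gave 3 each. The gene body alone gave 1 and the 2 groups alone 0. With all deposited peaks the calls of Irf9, Trim25, Ifnar2, Usp18 and Ifit2 were lost. With −log10 q of at least 5 those of Trim25, Ifnar2, Usp18 and Ifit2 were lost. The loci called under these 2 settings thus include members not called in the main fit. With replicate number as a block, 0, 0, 1 and 4 loci were called, although the numbers do not pair the libraries. The causes of these shifts were not tested, including the fewer summits under shorter loci and the fewer samples in fits of 2 groups. Precision is limited by 2 or 3 libraries per group, by the small number of summits per locus and by a depth that is unknown.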
